A study of Bos taurus with 7 samples.

Results

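The 8 iron storage and uptake genes described here were *FTH1*, *FTL*, *NCOA4*, *TFRC*, *SLC11A2*, *SLC40A1*, *HMOX1* and *IREB2*, out of 23704 genes matched in bovine preantral follicles. They were chosen by gene symbol, and their levels are sums over 26 RefSeq transcripts out of 76123 in the deposited quantifications. The libraries came from whole follicles of *Bos taurus*, each an oocyte with its granulosa cells, mechanically isolated from ovaries of Holstein Friesian dairy cows in the second year of life. Primary follicles (PF, 4 libraries) have 1 complete layer of cuboidal granulosa cells, and secondary follicles (SF, 3 libraries) have 2 or 3 layers. Every library was a pool of follicles lysed after a short recovery in a medium with insulin, transferrin, selenite and follicle stimulating hormone, so both groups had met the same outside source of transferrin. No animal was treated or genetically modified, and no library is tied to 1 animal by its labels. The comparison was made without PF replicate 4, whose values are given for each of the 8 genes. The study had set the same library aside as an outlier.

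Cells take up iron bound to transferrin through the transferrin receptor, carry it out of endosomes with a divalent metal transporter, and store what they do not use inside ferritin shells built of heavy and light chains. Ferritin is broken down in lysosomes through a cargo receptor, heme is opened by heme oxygenase, and surplus iron leaves through ferroportin. Iron regulatory proteins bind stem-loops in several of these messenger RNAs and control their translation or stability, so that the level of a messenger RNA and that of its protein can differ. In the follicle, granulosa cells surround the oocyte and feed it through gap junctions. A pooled whole follicle holds the RNA of both compartments.

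The 7 libraries held 18788105 to 23764615 estimated counts. Levels are given in TPM, the quantifier's unit that corrects for transcript length and for depth, and differences are log2 fold changes of SF over PF from DESeq2 with their standard errors (SE). A gene was called where its adjusted p was below 0.05, with adjustment over all genes. The score of the oocyte markers, the mean log2(TPM + 1) over the list, was 6.06 to 7.03 in PF replicates 1 to 3 and 2.98 to 5.22 in SF, and that of the granulosa markers was 4.18 to 4.60 and 5.24 to 6.07. In PF replicate 4 the stromal fibroblast score reached 6.84, above the 2.37 to 3.29 of the other 6 libraries. Its scores of theca markers (5.87) and smooth muscle markers (4.19) were also the highest. Its oocyte score was 3.55, and that of SF replicate 3, which was kept, was lower at 2.98. In such bulk RNA fewer cells of a type and less RNA per cell cannot be told apart. Each library's name starts with a number, under 40 in 3 libraries (PF replicates 1, 2 and SF replicate 1) and over 40 in 4. The labels do not say what it stands for.

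None of the 8 genes was called different between PF and SF. The count was 0 of 8 in DESeq2, which called 19.1% of 15056 genes, 8.14% higher and 11% lower in SF. At an unadjusted p below 0.05 there was 1 gene, *SLC11A2*, in DESeq2, and 1 in edgeR's quasi-likelihood test, which itself called 0 of 14293 genes. Of all genes tested, 31.8% and 26.9% reached that unadjusted p in these tests. The median log2 fold change of the 8 genes was 0.58, beside 0.02 over all genes tested. The 2 ferritin chains, *TFRC*, *SLC11A2* and *HMOX1* had the higher mean in SF, *NCOA4* had the lower, and *SLC40A1* and *IREB2* had nearly equal means. Since each sample was a pool, all p-values refer to the spread between pools. Nor was any of the 8 called with all 7 libraries, where 5.82% of genes were (2.63% higher, 3.19% lower), or with the library number in the fit, where 16.4% were (7.94% higher, 8.48% lower). Without PF replicate 3, in contrast, 3 of the 8 were called higher (*FTH1*, *FTL* and *HMOX1*). That fit called 25.5% of all genes, 13.1% higher and 12.5% lower. With an offset for transcript length 1 of the 8 was called higher (*SLC11A2*), beside 1244 of all genes higher and 1679 lower. With the replicate number as a block 4 of the 8 were called higher (*FTH1*, *FTL*, *TFRC* and *HMOX1*), beside 28% of all genes. Of all genes, 13.4% were called higher and 14.6% lower with the block. Whether same-numbered samples are paired is not in the labels.

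**Figure D1:**
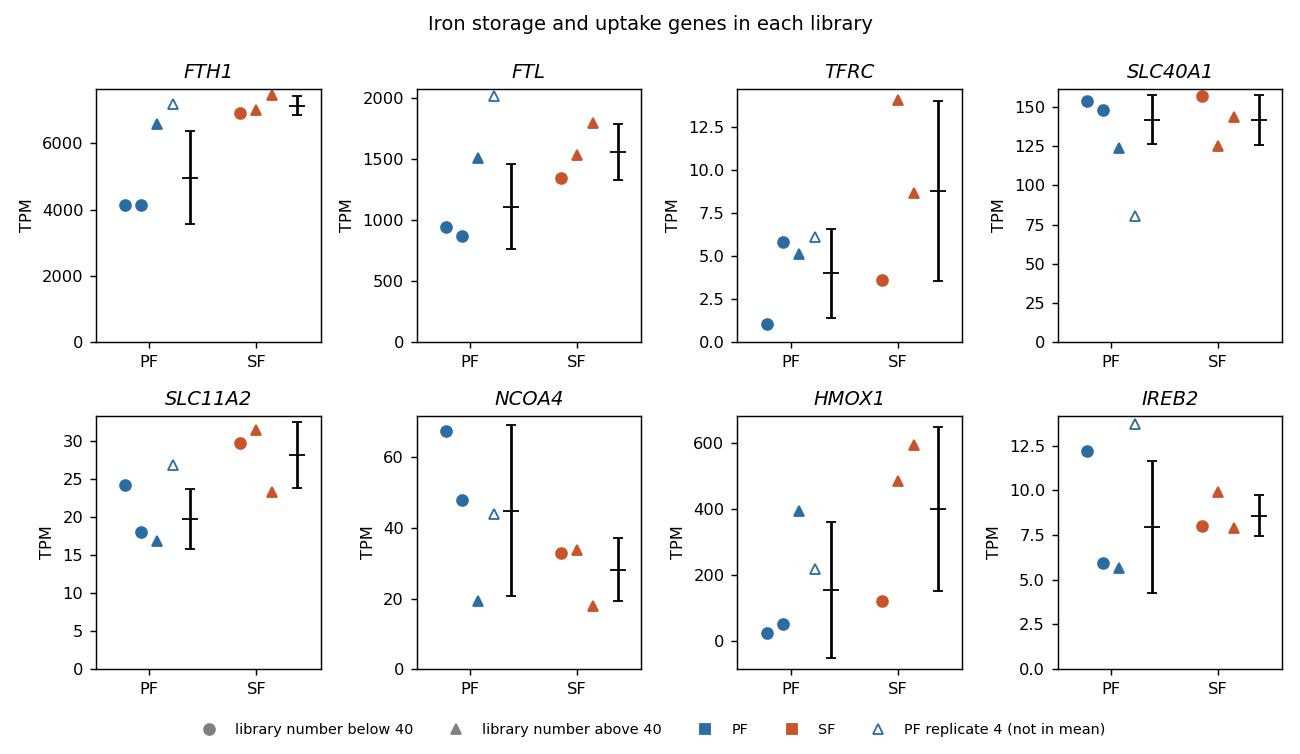
TPM of the 8 genes in each library, with PF in blue and SF in orange, circles for library numbers below 40, triangles for those above, and bars for the mean ± SD of n = 3 (PF replicate 4, the open symbol, is not in the mean). *FTH1* lies at 4148.1 TPM or more in every library while *TFRC* stays at or below 14.1 TPM, and *HMOX1* spans 22.9 to 596 TPM with a bar in PF that is wider than its mean.

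*FTH1*, the ferritin heavy chain, which oxidises iron as it enters the shell, was by far the most abundant of the 8. Its level was 4151.3, 4148.1, 6592.0 and 7179.6 TPM in PF replicates 1 to 4 and 6924.0, 7014.3 and 7461.3 TPM in SF replicates 1 to 3. It ranked 4 among all genes by mean TPM in each group. PF replicates 1 and 2 were low and nearly equal, whereas PF replicates 3 and 4 lay close to the SF libraries. With PF replicate 4 left out the groups did not overlap, as held for 14.3% of all genes tested in that direction and 32.7% in either. They did overlap once transcripts under 200 bases, which held 1.89% to 14.6% of the TPM of a library, were removed and TPM rescaled, since PF replicate 3 then stood at 7721.6 and SF replicate 2 at 7491.2 TPM.

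The means of *FTH1* were 4963.8 ± 1410.0 TPM in PF and 7133.2 ± 288 TPM in SF (± SD of 3 libraries each, as for all means with ± below). The log2 fold change was 0.60 ± 0.39 (SE), with a 95% confidence interval of -0.16 to 1.35, and did not pass (DESeq2 adjusted p = 0.28). *FTH1* had 52003 to 101495 counts per library. Without PF replicate 3 the gene was called, at 1.01 (DESeq2 adjusted p = 0.0012), and so were 25.5% of all genes, 13.1% higher and 12.5% lower.

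*FTL*, the ferritin light chain, which helps the iron core to form, followed the heavy chain. It stood at 945, 872, 1510.8 and 2012.2 TPM in PF replicates 1 to 4 and at 1340.9, 1529.7 and 1793.1 TPM in SF. The highest library was PF replicate 4 and the groups overlapped, with PF replicate 3 above SF replicate 1. Means were 1109.4 ± 350 TPM in PF and 1554.6 ± 227 TPM in SF, and the log2 fold change of 0.56 ± 0.42, interval -0.26 to 1.38, did not pass (DESeq2 adjusted p = 0.37). It too was called without PF replicate 3 (1.01, DESeq2 adjusted p = 0.0096).

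The mean shares of the chains differed between the groups by less than the spread of the libraries. *FTH1* made up 81.4%, 82.6%, 81.4% and 78.1% of the summed ferritin TPM in PF replicates 1 to 4, and 83.8%, 82.1% and 80.6% in SF. These shares were 81.8% ± 0.712 in PF and 82.2% ± 1.58 in SF, and the ratio of *FTH1* to *FTL* TPM was 4.5 ± 0.22 and 4.64 ± 0.503. Over the 7 libraries this ratio ran from 3.57 to 5.16, lowest in PF replicate 4. The summed level was 6073.2 ± 1758.1 TPM in PF and 8687.8 ± 510 TPM in SF. Ferritin transcripts thus made up 0.502% to 0.925% of the TPM of a library.

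**Figure D2:**
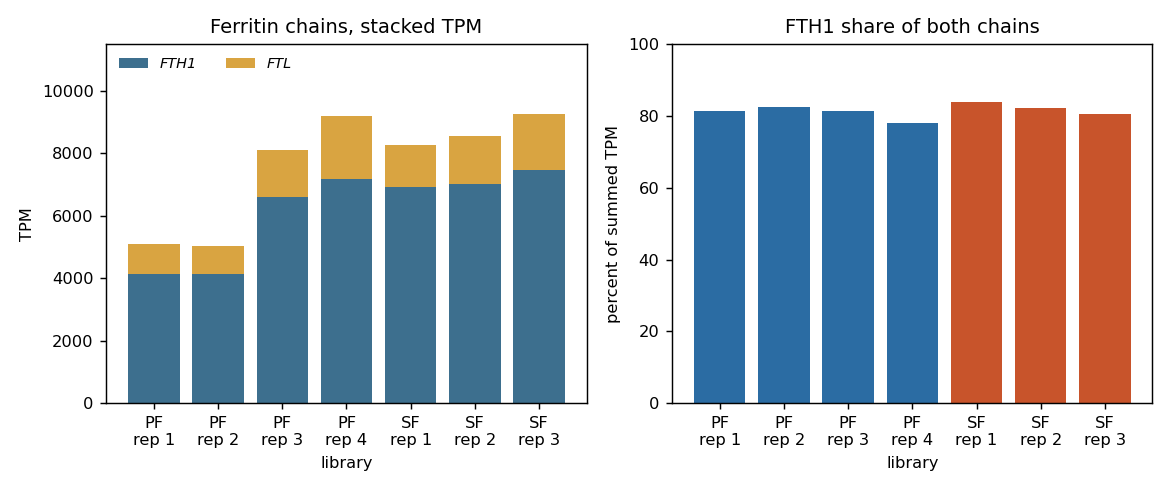
Stacked TPM of the ferritin chains *FTH1* and *FTL* in each of the 7 libraries (left) and *FTH1* as a percent of their sum (right), PF in blue and SF in orange. PF replicates 1 and 2 have the lowest sums, while the share of *FTH1* lies between 78.1% and 83.8% in every library.

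Each ferritin chain was held by a single transcript model in the quantifications. The names given here are those of the RefSeq table, and reads of near-identical ferritin copies, which are frequent in mammalian genomes, could have been assigned to or away from these models. Among 8128 genes with a mean of 10 TPM or more, the genes whose log2(TPM + 1) ran most like that of *FTH1* over the 7 libraries were *DUSP1*, *RCN2* and *TMEM47*. *DUSP1*, an early response phosphatase, had a Pearson r of 0.997 and a Spearman rho of 0.964, and r was 0.959 without PF replicates 1 and 2. For *RCN2* and *TMEM47* r was 0.986 and 0.977, and fell to 0.811 and 0.601 without these libraries. For *FTL* the most alike were *GEM*, *LMCD1* and *FSCN1*, at r of 0.987, 0.983 and 0.982, and 0.960, 0.916 and 0.923 without the same libraries. The 7 libraries differ in stage, cell makeup and library number at once, so these likenesses are a description.

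*NCOA4*, the cargo receptor that brings ferritin to lysosomes, had a lower mean in SF. It stood at 67.4, 48.0, 19.2 and 43.9 TPM in PF and at 32.8, 33.8 and 18.0 TPM in SF. PF replicates 1 and 2 were above all SF libraries, but PF replicate 3 was below SF replicates 1 and 2, so the groups overlapped. The means of 44.9 ± 24.3 TPM in PF and 28.2 ± 8.88 TPM in SF gave a log2 fold change of -0.51 ± 0.46, interval -1.41 to 0.40, which did not pass (DESeq2 adjusted p = 0.48). Within library numbers below 40 (2 PF libraries, 1 SF) the SF to PF ratio of TPM was 0.568. Above 40 it was 1.35 against PF replicate 3 alone and 0.821 with PF replicate 4 kept, so its direction depended on PF replicate 4.

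The ratio of *FTH1* to *NCOA4* TPM therefore ranged widely, from 61.6 in PF replicate 1 to 416 in SF replicate 3. In the same order of libraries it was 61.6, 86.5, 343 and 164 in PF and 211, 207 and 416 in SF. PF replicate 3 again lay among the SF values.

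The reads of *NCOA4* were spread over several of the 8 transcript models found in the files, of 11 in the RefSeq table. The curated model NM_001075868.1 held 80.0% of the gene's TPM in PF replicate 1 and 7.81% in SF replicate 3. With curated models alone the means were 26.1 TPM in PF and 8.03 TPM in SF, and the log2 fold change was -1.55 ± 0.87 (DESeq2 adjusted p = 0.22). Most of the models differ little in length, and the split of reads between them is uncertain. The genes most like *NCOA4* were *CDK5RAP1*, *OBI1* and *NDUFS1*, with r of 0.988, 0.985 and 0.984 over 7 libraries, rho of 0.964 each, and r of 0.981, 0.972 and 0.960 without PF replicate 1 and SF replicate 3.

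*TFRC*, the transferrin receptor, was the least abundant of the 8 in PF. It stood at 1.06, 5.81, 5.14 and 6.13 TPM in PF replicates 1 to 4 and at 3.60, 14.1 and 8.66 TPM in SF, from 87 to 1056 counts. PF replicate 1 was the lowest and SF replicate 2 the highest, 13.3 times as high. The groups overlapped because SF replicate 1 lay under PF replicates 2, 3 and 4.

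The means of *TFRC* were 4.00 ± 2.57 TPM in PF and 8.79 ± 5.26 TPM in SF. Its log2 fold change of 1.16 ± 0.76, interval -0.34 to 2.66, did not pass (DESeq2 adjusted p = 0.29). At this spread neither a zero change nor one of several fold could be told apart from the value. By mean TPM it ranked 10547 in PF and 8134 in SF among all genes.

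The transcript models behind *TFRC* were all predicted ones, since the curated model NM_001206577.1 was listed at 0 in every library. The predicted model XM_024996657.1 had reads in 2 libraries, PF replicate 2, with 58.6% of the gene's TPM, and SF replicate 2, with 48.8%. With curated models alone *TFRC* would be at 0 in both groups. The genes most like it over the 7 libraries were *CRLF3*, *ZNF653* and *ATF1*, with r of 0.993, 0.971 and 0.936, rho of 0.964, 0.964 and 0.929, and r of 0.953, 0.80 and 0.974 without PF replicate 1 and SF replicate 2.

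*SLC11A2*, the divalent metal transporter that moves iron out of endosomes, came nearest to a call. It stood at 24.2, 18.1, 16.9 and 26.8 TPM in PF replicates 1 to 4 and at 29.7, 31.5 and 23.3 TPM in SF. The groups overlapped only in that SF replicate 3 lay just under PF replicate 1, and, with PF replicate 4, under that library too. Means were 19.7 ± 3.95 TPM in PF and 28.2 ± 4.31 TPM in SF.

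The log2 fold change of *SLC11A2* was 0.59 ± 0.25, interval 0.11 to 1.07, with an unadjusted p = 0.017 and a DESeq2 adjusted p = 0.075. An offset for average transcript length, which takes account of the 8 models that share its reads, carried it past the threshold (0.64, DESeq2 adjusted p = 0.044). The other 19 alternative settings did not, and these count the stricter thresholds, which could not have called it. Curated transcripts alone gave 0.51 (DESeq2 adjusted p = 0.35) and all 7 libraries gave 0.39 (DESeq2 adjusted p = 0.48). The SF to PF ratio of TPM was 1.4 within library numbers below 40, where SF has 1 library, and above 40 it was 1.63 against PF replicate 3 alone and 1.26 with PF replicate 4 kept. The curated model NM_001101103.1 held 63.8% of its TPM over the libraries. *SLC11A2* TPM was 2.24 to 22.9 times that of *TFRC*, and the highest ratio was that of PF replicate 1.

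*SLC40A1*, ferroportin, the exporter of iron, was the gene that differed least. It stood at 154, 148, 124 and 80.7 TPM in PF replicates 1 to 4 and at 157, 125 and 144 TPM in SF. Apart from PF replicate 4, which was the lowest, all libraries lay within a narrow range. The means of 142 ± 15.6 TPM in PF and 142 ± 16 TPM in SF gave a log2 fold change of 0.12 ± 0.25, interval -0.38 to 0.62 (DESeq2 adjusted p = 0.79). Its TPM was 8.87 to 145 times that of *TFRC*, so that in every library the exporter's transcripts outnumbered those of the receptor. The predicted model XM_005202202.4 and the curated model NM_001077970.1 held 61.6% and 38.4% of its TPM.

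*IREB2*, an iron regulatory protein that binds the stem-loops in ferritin and receptor messages, was low in all libraries. It stood at 12.2, 5.96, 5.67 and 13.7 TPM in PF replicates 1 to 4 and at 7.98, 9.90 and 7.89 TPM in SF. The SF libraries lay inside the range of the PF libraries. Means were 7.95 ± 3.69 TPM in PF and 8.59 ± 1.14 TPM in SF, and the log2 fold change was 0.25 ± 0.38, interval -0.49 to 0.99 (DESeq2 adjusted p = 0.7). With PF replicate 4 kept the sign turned (-0.09, DESeq2 adjusted p = 0.94).

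*HMOX1*, heme oxygenase 1, which frees iron from heme and is induced in many cells by heme and oxidative stress, varied most. It stood at 22.9, 49.7, 394 and 217 TPM in PF replicates 1 to 4 and at 120, 484 and 596 TPM in SF, so that the highest library was 26.1 times the lowest. PF replicates 1 and 2 and SF replicate 1 were low, and the other 4 libraries were high in both groups. The means were 155 ± 207 TPM in PF and 400 ± 249 TPM in SF. The log2 fold change of 1.32 ± 1.02, interval -0.68 to 3.32, did not pass (DESeq2 adjusted p = 0.39), and without PF replicate 3 it was 3.68 (DESeq2 adjusted p = 2.6e-05).

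The level of *HMOX1* separated by library number. The libraries below 40 held 22.9 to 120 TPM and those above 40 held 217 to 596 TPM, without overlap, as did 5.39% of all genes in that direction. In the fit with stage and library number, whose library number term was examined after the data were seen, libraries above 40 were higher by a log2 value of 2.97 ± 0.50 (7.84-fold, DESeq2 adjusted p = 6.5e-07). Leaving out each of the 6 libraries in turn gave 2.23 to 3.76, with DESeq2 adjusted p of 0.017 or less. In edgeR the same term was 3.03 and did not pass (adjusted p = 0.12), and edgeR called 4 of 14293 genes for it.

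Within each side of the division *HMOX1* was still higher in SF, on few libraries. Below 40 the mean of 2 PF libraries was 36.3 TPM and the 1 SF library had 120 TPM (ratio 3.31). Above 40 the mean of 2 SF libraries was 540 TPM, 1.37 times PF replicate 3 (394 TPM) and 1.77 times the mean of PF replicates 3 and 4 (306 TPM). With both terms in the fit its log2 fold change of SF over PF was 1.14 ± 0.50 (DESeq2 adjusted p = 0.11). Of the 8 genes 1, *HMOX1*, was called for the library number, against 4.63% of 19009 genes called, 3.05% higher above 40. Among the others, the values of *FTL* (872 to 1340.9 TPM below 40, 1510.8 to 2012.2 TPM above) and *SLC40A1* (148 to 157 and 80.7 to 144 TPM) did not overlap either (6.89% of all genes were lower without overlap, as *SLC40A1* was), but their terms of 0.71 ± 0.30 and -0.07 ± 0.25 did not pass (DESeq2 adjusted p = 0.2 and 0.96). Without SF replicate 2 the term of *FTL* was called (0.86, DESeq2 adjusted p = 0.016). The term of *TFRC*, 1.24 ± 0.71 (DESeq2 adjusted p = 0.46), was called without PF replicate 2 (2.01, DESeq2 adjusted p = 0.0042). *NCOA4* had a term of -0.80 ± 0.37 (DESeq2 adjusted p = 0.28).

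**Figure D3:**
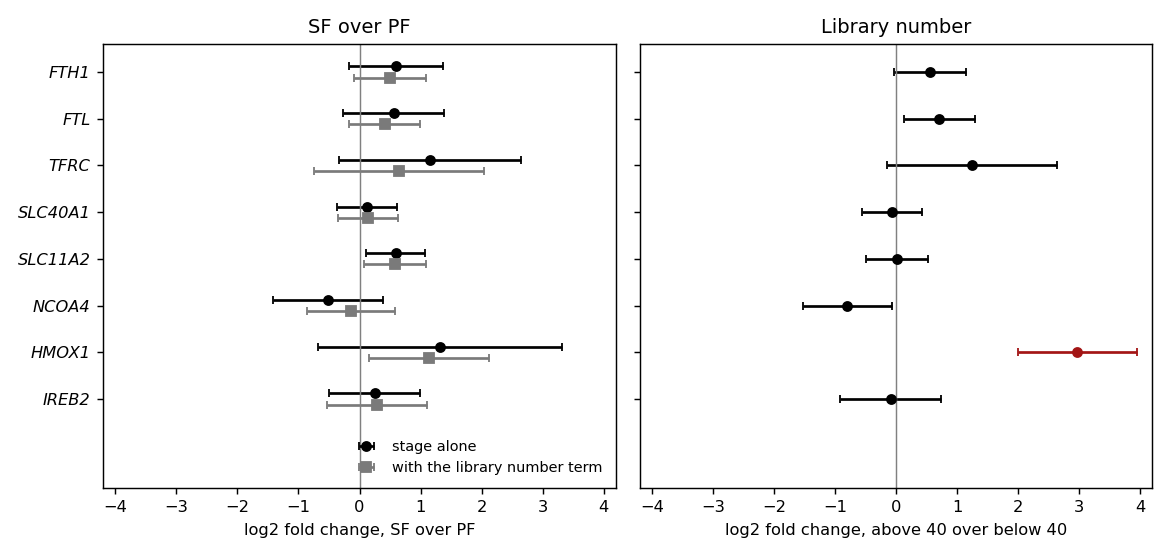
Log2 fold changes of the 8 genes from DESeq2 with 95% confidence intervals over 6 libraries. On the left SF over PF, with stage alone (circles) and with the library number term (squares), where none was called. On the right library number above 40 over below 40, where *HMOX1* (red, 2.97) was called and the others were not.

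Genes that regulate *HMOX1* or share its regulators did not all follow the library number. *MAFF*, a small MAF protein that pairs with NRF2 and BACH1, stood at 1.34, 0.713 and 0.236 TPM in the libraries below 40 (PF replicates 1 and 2, SF replicate 1) and at 162 to 492 TPM in those above, with a library number term of 9.24 (DESeq2 adjusted p = 1.7e-44). The repressor *BACH1* (1.92, DESeq2 adjusted p = 0.016), *MAFK* (2.32, DESeq2 adjusted p = 0.036) and the NRF2 target *SRXN1*, sulfiredoxin (3.92, DESeq2 adjusted p = 1.7e-04), were higher above 40 as well. *NFE2L2*, which encodes NRF2, had a term of 0.35 (DESeq2 adjusted p = 0.75) and was called for the stage instead. The other genes of the NRF2 and hypoxia list described below were not called for the library number either. Among them *NQO1* (-0.53, DESeq2 adjusted p = 0.77) and *KEAP1* (-0.17, DESeq2 adjusted p = 0.95) had negative terms. The rest had positive terms, largest for *HIF1A* (1.18), *ARNT* (0.88) and *GCLC* (0.76) (DESeq2 adjusted p = 0.34, 0.34 and 0.2). Those of *MAFG* (0.60, DESeq2 adjusted p = 0.58), *TXNRD1* (0.57, DESeq2 adjusted p = 0.69) and *GCLM* (0.21, DESeq2 adjusted p = 0.93) were smaller. Of 111 other iron and heme genes 9 were called higher above 40 and 0 lower, beside 3.05% and 1.58% of all genes. Besides *MAFF*, *BACH1*, *MAFK* and *SRXN1* they were *BMP2*, *HP*, *ACSL4*, *GCH1* and *SAT1*. *HP*, listed above 0 in 1 library, was not called with all 7 libraries.

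**Figure D4:**
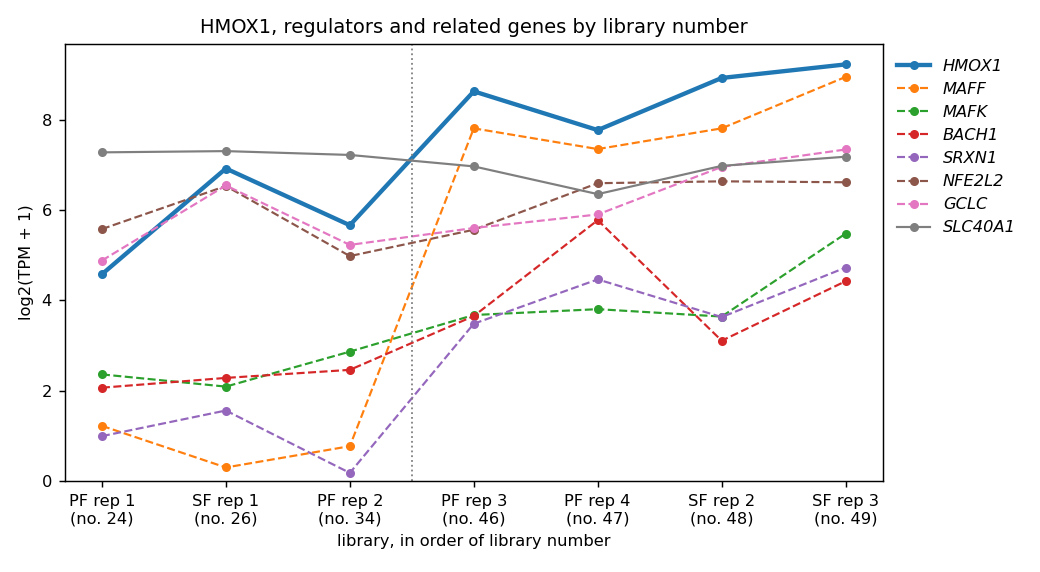
Level as log2(TPM + 1) of *HMOX1*, *SLC40A1* and 6 regulators and stress response genes in the 7 libraries, ordered by library number, with a dotted line at the division at 40. *HMOX1*, *MAFF*, *BACH1*, *MAFK* and *SRXN1* are higher in each library to the right of the line than in any to its left, while *SLC40A1* is lower and *NFE2L2* and *GCLC* overlap.

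Over the 7 libraries 58 genes had r above 0.95 with *HMOX1*. The most alike were *ZFP36*, *RRAD* and *RASD1*, at r of 0.995, 0.992 and 0.988 and the same rank order in all 7 libraries, and at r of 0.983, 0.980 and 0.986 without PF replicates 1 and 2. *ZFP36* encodes an early response protein that destabilises messenger RNA. The likeness to *HMOX1* was ranked after its values were seen.

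Markers of blood and of iron-recycling cells were measured as well. The erythroid list had a summed level of 16.1 to 24.9 TPM over the 7 libraries, and of its 12 genes *HBB*, *ALAS2* and *CA1* were among those at 0 in every library. *HBA*, an alpha globin gene, had reads in all 7 (2.1 to 24.7 TPM), and *EPB42*, a red cell membrane protein, was highest in PF replicate 1 (16.4 TPM). The macrophage list summed to 3.93 to 89.3 TPM, with *CD163*, *MARCO*, *C1QA* and *MRC1*, 4 of 14, at 0 in all. Most of the higher sums came from *CSF1R*, with 89.2, 62 and 31.5 TPM in PF replicates 1 to 3. The score of the list overlapped between library numbers below 40 (0.48 to 1.25) and above (0.26 to 0.85). Its sum did not overlap, at 56.6 to 89.3 TPM below 40 and 3.93 to 41.6 TPM above. SF replicate 1 had the highest macrophage score (1.25). It also had the highest sum of a leukocyte list, at 19.1 TPM beside 0.112 to 3.64 TPM in the other libraries. The part of the macrophage and leukocyte lists in the level of *HMOX1* was not tested. The part of the oocyte and granulosa scores in the differences between SF and PF was not tested.

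The order of the levels was alike in PF and SF. *FTH1* exceeded *FTL* by 4.47 times in mean TPM in PF and 4.59 times in SF, and *FTL* exceeded *HMOX1* by 7.13 and 3.89 times, without overlap of libraries in either group. *HMOX1* and *SLC40A1* overlapped, as did *NCOA4* and *SLC11A2*, and *IREB2* and *TFRC*. The libraries of *SLC40A1* and *NCOA4* did not overlap, with *SLC40A1* at 3.16 times *NCOA4* in PF and 5.04 times in SF. Nor did those of *SLC11A2* and the next gene, at 2.48 times *IREB2* in PF and 3.21 times *TFRC* in SF. *HMOX1* did overlap *NCOA4* in PF, at 22.9 against 67.4 TPM in PF replicate 1. In each PF library *IREB2* was above *TFRC*, and in SF replicates 2 and 3 it was below.

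The wider iron and heme pathways were described by 8 lists with 113 genes besides these, of which 100 had an adjusted p. Of these 12 (12%) were called higher and 8 (8%) lower in SF, beside 8.14% and 11% of all genes, with a median log2 fold change of 0.23. With PF replicate 4 kept the counts were 5 and 3, and edgeR called 0 of them with 28 at an unadjusted p below 0.05, beside 30 in DESeq2. The shares of all genes tested at that p were 26.9% and 31.8%. The granulosa score was higher and the oocyte score lower in SF in the same libraries, and their part in these counts was not tested.

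**Figure D5:**
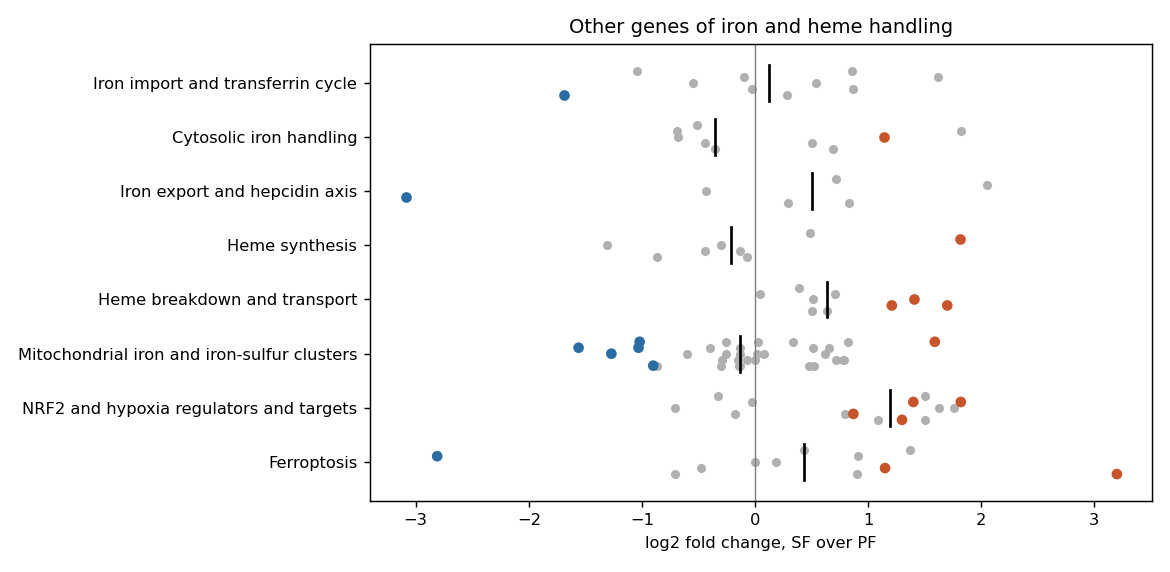
Log2 fold change of SF over PF for the 100 other iron and heme genes with an adjusted p, 1 point a gene, with those called higher in orange, those called lower in blue, those not called in grey, and a bar at the median of each list. The mitochondrial list, with 33 of the 100 genes, holds 5 of the 8 called lower (15.2% of the list, beside 11% of all genes). The heme breakdown list and the NRF2 list hold 3 and 4 of the 12 called higher (33.3% and 28.6%, beside 8.14% of all genes).

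Of 10 iron import and transferrin cycle genes 0 rose and 1 fell (10%, beside 11% of all genes), with a median of 0.12. *CYBRD1*, a ferric reductase, fell from 61.4, 45.0 and 63.6 TPM in PF replicates 1 to 3 to 19.7, 18.2 and 7.87 TPM in SF (-1.69 ± 0.38, DESeq2 adjusted p = 2.5e-04). It was at 14.3 TPM in PF replicate 4, with which the call ended (DESeq2 adjusted p = 0.09). *TF*, transferrin itself, was at 16.6 ± 4.42 TPM in PF and 28.4 ± 3.74 TPM in SF and did not pass (0.86 ± 0.38, DESeq2 adjusted p = 0.095).

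Of 9 cytosolic iron handling genes 1 rose (11.1%, beside 8.14% of all genes) and 0 fell, with a median of -0.35. *PCBP2*, an iron chaperone that also binds RNA, rose from 45.1 ± 6.63 to 91.8 ± 23.9 TPM (1.14 ± 0.40, DESeq2 adjusted p = 0.029). This was not so with all 7 libraries (DESeq2 adjusted p = 0.21), nor without PF replicate 1, PF replicate 2, SF replicate 1 or SF replicate 3 (up to 0.15). The chaperone *PCBP1* (0.50 ± 0.29) and the glutaredoxin *GLRX3* (-0.51 ± 0.27) were abundant and did not pass (DESeq2 adjusted p = 0.23 and 0.17).

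Among 6 genes of iron export and the hepcidin axis 0 rose and 1 fell, with a median of 0.50. The fall was 16.7% of the list, beside 11% of all genes. *BMP6*, the ligand that induces hepcidin in liver and a growth factor of oocytes, fell from 45.8, 40.5 and 14.8 TPM in PF to 2.54, 4.08 and 3.96 TPM in SF (-3.09 ± 0.48, DESeq2 adjusted p = 5.6e-08). It was at 25.1 TPM in PF replicate 4, so that no PF library overlapped with SF. *NEO1*, a coreceptor, did not pass (0.83 ± 0.45, DESeq2 adjusted p = 0.19).

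Heme breakdown and transport had 3 of 9 genes higher (33.3%, beside 8.14% of all genes) and 0 lower, with a median of 0.64. *BLVRB*, the biliverdin reductase that acts after heme oxygenase, rose from 57.5, 63.5 and 59.7 TPM in PF to 144, 159 and 143 TPM in SF (1.41 ± 0.27, DESeq2 adjusted p = 1.9e-05). PF replicate 4 was at 57.5 TPM too, and the call held with it and without any of the 6 libraries. *BLVRA*, the other reductase, rose from 45.1 ± 13.4 to 96.9 ± 26.6 TPM (1.21 ± 0.36, DESeq2 adjusted p = 0.0073), a call that ended without PF replicate 2 (DESeq2 adjusted p = 0.052).

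*LRP1*, a receptor that takes up the heme carrier hemopexin, rose from 3.72 ± 1.82 to 12.0 ± 4.24 TPM (1.70 ± 0.52, DESeq2 adjusted p = 0.01). It was at 23.3 TPM in PF replicate 4, and the call ended with that library (DESeq2 adjusted p = 0.85) and without PF replicate 2 or SF replicate 2 (up to 0.1). *PGRMC1*, a heme-binding membrane protein, was abundant at 301 ± 7.87 and 398 ± 34.6 TPM and did not pass (0.51 ± 0.24, DESeq2 adjusted p = 0.13).

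In heme synthesis 1 of 8 genes rose (12.5%, beside 8.14% of all genes) and 0 fell, with a median of -0.22. *FECH*, ferrochelatase, which inserts iron into the ring, rose from 3.8, 5.12 and 8.55 TPM in PF to 14.3, 23.1 and 21.8 TPM in SF (1.81 ± 0.56, DESeq2 adjusted p = 0.01). PF replicate 4 was the highest at 29.6 TPM. The call ended with it (DESeq2 adjusted p = 0.69), and also without PF replicate 1, PF replicate 2, SF replicate 2 or SF replicate 3 (up to 0.082). The earlier enzymes *ALAD* (-0.87 ± 0.38) and *UROD* (-0.44 ± 0.37) did not pass (DESeq2 adjusted p = 0.09 and 0.45).

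Mitochondrial iron and iron-sulfur cluster genes held 1 rise and 5 falls among 33, with a median of -0.13. These were 3.03% and 15.2% of the list, beside 8.14% and 11% of all genes. Both ferredoxins fell, *FDX1* from 159 ± 18.9 to 61.8 ± 21.0 TPM (-1.27 ± 0.31, DESeq2 adjusted p = 8.0e-04) and *FDX2* from 216 ± 42.3 to 71.1 ± 28.0 TPM (-1.56 ± 0.40, DESeq2 adjusted p = 0.0015). *CISD1*, an iron-sulfur protein of the outer membrane, fell from 267 ± 21.7 to 123 ± 32.9 TPM (-1.02 ± 0.29, DESeq2 adjusted p = 0.0056). *FDX2* and *CISD1* were at 46.3 and 122 TPM in PF replicate 4 and were not called over all 7 libraries (DESeq2 adjusted p = 0.21 and 0.17).

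*FDXR*, the reductase that passes electrons to ferredoxin, was the single gene of that list to rise, from 3.42, 3.67 and 4.06 TPM in PF to 11.5, 13.7 and 7.0 TPM in SF (1.59 ± 0.46, DESeq2 adjusted p = 0.006). It was at 5.59 TPM in PF replicate 4, below each SF library. The call ended without SF replicate 2 (DESeq2 adjusted p = 0.086). *GLRX5* and *HSPA9*, which act in cluster assembly, were abundant and did not pass (0.72 ± 0.29 and 0.65 ± 0.32, DESeq2 adjusted p = 0.066 and 0.14).

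NRF2 and hypoxia regulators and targets held 4 rises (28.6%, beside 8.14% of all genes) and 0 falls among 14, with a median of 1.2. With all 7 libraries 1 was called higher, beside 2.63% of all genes. *KEAP1* was among the 4 (0.87 ± 0.30, DESeq2 adjusted p = 0.025) but was not called with all 7 libraries (DESeq2 adjusted p = 0.74). *GCLC*, which makes the precursor of glutathione, rose from 28.5, 36.5 and 47.6 TPM in PF to 92.3, 123 and 161 TPM in SF (1.82 ± 0.44, DESeq2 adjusted p = 7.5e-04), with PF replicate 4 at 58.8 TPM. *NFE2L2* rose from 46.8, 30.6 and 46.3 TPM to 91.5, 98.4 and 97.0 TPM (1.3 ± 0.34, DESeq2 adjusted p = 0.002). It was at 95.6 TPM in PF replicate 4, with which the call ended (DESeq2 adjusted p = 0.37).

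*TXNRD1*, thioredoxin reductase, was called higher at 25.4 ± 7.29 and 60.3 ± 28.3 TPM (1.40 ± 0.48, DESeq2 adjusted p = 0.023). PF replicate 4 was at 96.1 TPM, above every SF library. The call ended over all 7 libraries (0.75), with the library number in the fit (0.07) and without any of 5 of the 6 libraries (up to 0.13). *HIF1A*, the hypoxia factor, did not pass (1.5 ± 0.67, DESeq2 adjusted p = 0.1), nor did *MAFF* (1.63 ± 2.46, DESeq2 adjusted p = 0.7). The score of the list was 4.03 to 4.34 below library number 40 and 4.99 to 5.91 above. That mean includes *MAFF*, at 0.236 to 1.34 TPM below and 162 to 492 TPM above. Of the list, *MAFF*, *BACH1*, *MAFK* and *SRXN1* were called for the library number and the other genes were not.

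Of 11 genes of ferroptosis, the iron-dependent death by lipid peroxidation, 2 rose (18.2%) and 1 fell (9.09%), with a median of 0.43. The shares of all genes were 8.14% and 11%. *SLC7A11*, the cystine importer, rose from 1.82, 0.827 and 0.435 TPM in PF to 6.07, 8.57 and 10.1 TPM in SF (3.20 ± 0.54, DESeq2 adjusted p = 6.6e-07). PF replicate 4 was at 0.974 TPM, and the call held with it and without any of the 6 libraries. *DHODH*, a mitochondrial enzyme that keeps ubiquinone reduced, fell from 188, 120 and 54.5 TPM to 17.5, 19.6 and 9.53 TPM (-2.81 ± 0.47, DESeq2 adjusted p = 4.7e-07). PF replicate 4, at 18.7 TPM, lay among the SF libraries.

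*AIFM2*, which also keeps ubiquinone reduced, rose from 9.51 ± 3.10 to 18.1 ± 1.90 TPM (1.15 ± 0.42, DESeq2 adjusted p = 0.034). PF replicate 4 was at 29.5 TPM, above every SF library. Its call ended over all 7 libraries (0.87), with the library number in the fit (0.066) and without any of 5 of the 6 libraries (up to 0.14). *GPX4*, the peroxidase that repairs lipid peroxides, was at 367 ± 42.8 TPM in PF and 211 ± 76.6 TPM in SF and did not pass (-0.71 ± 0.36, DESeq2 adjusted p = 0.16). *SAT1*, a polyamine acetyltransferase, was at 574 ± 506 and 1075.8 ± 301 TPM and did not pass either (0.91 ± 0.69, DESeq2 adjusted p = 0.38).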

How the data were processed

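RNA of pooled whole follicles was amplified with a kit for low input that starts from poly(A) tails, and sequenced in 7 libraries (PF, 4, and SF, 3). The authors trimmed the reads with Trim Galore and fastp and quantified them with Salmon against bovine RefSeq transcripts of ARS-UCD1.3. The deposited files hold an estimated count and TPM per transcript. A RefSeq table, used for names alone, gave a gene for 50205 of 76123 transcripts (66.0%), 23704 genes in all. Unmatched transcripts held 9.71% to 10.7% of the counts. Counts and TPM were summed per gene, and counts were rounded.

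DESeq2 1.42.0 (R 4.3.3) gave the main result by its Wald test of SF over PF, 3 against 3 libraries without PF replicate 4, with median-of-ratios size factors and Benjamini-Hochberg adjustment over all genes. edgeR 4.0.16 and limma 3.58.1, the latter with a pseudocount of 1 or 0.1 on TPM, were alternatives, with other scalings, filters and library sets. Code was tested on simulated counts. No 2 libraries of a group were duplicates (chi-square per degree of freedom 97.8 or more). Intervals are 95%.

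The 8 genes and the lists were chosen with earlier results of these data known. Named were the 8 genes, in each list up to 3 genes called in each direction by adjusted p and the 2 with the highest TPM, and for 4 of the 8 the 3 genes most alike over 7 libraries. *HMOX1* was added to these 4, and the genes of the library number comparison were named, after the values were seen.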

Additional observations from a re-analysis of the deposited data

How the results depend on the processing

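Of 158 alternative values of the 8 log2 fold changes of SF over PF, 148 kept the direction and the side of the threshold, 8 passed it, and 2 turned, both for *IREB2*, with all 7 libraries (-0.09) and with all 7 and the library number (-0.13, added after the data were seen). The 148 include, for each gene, the stricter limits on adjusted p and on fold change. These reuse the main fit and could not move a gene that it had not called. *TFRC* and *IREB2* have no curated model with reads and gave no value with curated transcripts. The 8 genes called higher were 1 with the average transcript length offset and 0 to 3 with 1 library left out, 3 without PF replicate 3 (*FTH1*, *FTL* and *HMOX1*). The cause was not tested.

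The iron and heme genes called higher (12) and lower (8) became 0 and 0 in edgeR, 4 and 5 in limma on log2(TPM + 1), 0 and 0 with log2(TPM + 0.1) or no filter, 5 and 3 with all 7 libraries, and 4 and 3 with all 7 and the library number. At an adjusted p below 0.01, 6 were higher. With 1 library left out they were 6 (without SF replicate 2) to 16 and 6 to 10. All genes called higher (1226) and lower (1650) became 0 and 0 in edgeR, 233 and 559, 0 and 2, and 0 and 0 in the 3 limma fits, 699 and 966 with curated transcripts, 388 and 470 with all 7 libraries, 594 and 477 with the library number added, and 640 and 948 at 0.01. Leaving out 1 library gave 697 (without SF replicate 2) to 2018 (without PF replicate 3) and 927 (without PF replicate 1) to 1929, with 951 lower without PF replicate 2.

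Mean TPM of *FTH1* in SF was 7755.0 without transcripts under 200 bases. With curated transcripts *TFRC* was 0 in PF and 0 in SF, *SLC40A1* 51.9 and 57.3, *SLC11A2* 13.1 and 17.5, and *NCOA4* 8.03 in SF. The share of *FTH1* in ferritin in PF was 80.9% with PF replicate 4.

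With the replicate number as a block 4 of the 8 genes were called higher, *FTH1* (0.67, DESeq2 adjusted p = 0.044), *FTL* (0.64, 0.045), *TFRC* (1.35, 0.018) and *HMOX1* (2.23, 1.0e-04), beside 4077 of all genes (28%), 1948 of them higher. The labels do not say whether same-numbered samples are paired. Deviations of same-numbered libraries from their group means correlated over 13073 genes at 0.26, -0.02 and 0.41. Not every library correlated best with its own number. Replicates 1 and 3 also share their side of the library number division, so these correlations cannot decide whether the samples are paired.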
